A study of Mus musculus with 66 samples.

Results

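Adam19, Sepp1, Pgm5, Aatk and Igdcc4 are 5 of the 24062 genes measured by RNA sequencing in mouse germ cells and oocytes. They were chosen by their measured values, because their reads per 1000000 reads of a library (RPM) were far higher in small than in large oocytes of the ovary on postnatal days 4 and 6 (P4 and P6). Their values in those 4 groups are therefore given as a description, without a test, and tests were run only on the other stages and cultures. The study has 66 libraries in 24 groups. In vivo, 9 groups of 3 libraries each came from stella-ECFP(SC) reporter ovaries of a C57BL/6 x B6D2F1 background: cells from embryonic days E14.5, E16.5 and E18.5, from P1 and P3, and small and large oocytes of P4 and of P6. In vitro, 9 groups of 3 libraries each, from day 5 (D5) to day 20 (D20) of culture, and 6 groups of 2 libraries each at D21 came from reconstituted ovaries. These were made from Blimp1-mVenus embryonic stem cells of a C57BL/6 X 129/SvJ background, differentiated into primordial germ cell-like cells and mixed with gonadal somatic cells of embryos. By their labels the cells are germ cells until E18.5 in the ovary and until D11 in culture, and oocytes afterwards. At D21 the groups were Foxo3dNES transgenic and wild-type (WT) oocytes in hypoxia (5% O2), Foxo3dNES and WT oocytes in normoxia, and Foxo3dNES and WT oocytes for which no oxygen level was given. Foxo3dNES is, by its name, Foxo3 without its nuclear export signal. The promoter that drives it is not given, and all Foxo3dNES libraries carry the label of the same transgenic stem cells.

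The ovarian libraries held 13.9 to 23.2 M reads (M, 1000000), those of the course from D5 to D20 14.7 to 22.8 M, and those of D21 4.84 to 21.3 M. The 4 D21 libraries without an oxygen label were the shallowest, at 4.84 to 8.72 M. A count of 3 reads was worth 0.129 to 0.619 RPM, which covers counting error only. Replicate 2 of D5 stood apart from the other D5 libraries over all genes. Of the D11 libraries replicate 3 differed most from the others over all genes, with 8176 RPM of oocyte markers against 3581 and 3545 RPM, and replicate 2 stood apart in markers of other cells. Calls or values that turn on these libraries are also given without them. Nothing in the labels says whether libraries of a group came from separate animals or cultures, so p-values measure the spread between these libraries, which may be technical. The libraries are bulk samples, in which fewer cells of a type and less RNA per cell cannot be told apart. Of 15 oocyte genes that were used as markers, none was at 0 in all libraries of a group from E18.5 on.

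In the neonatal mouse ovary most oocytes are enclosed in dormant primordial follicles and stay small, while a minority starts to grow at once. Dormancy is kept in mice by the transcription factor Foxo3 in the nucleus, and PI3K-AKT signalling from the receptor Kit drives Foxo3 out of the nucleus when a follicle is activated. The 5 genes have no shared textbook role in this process. Adam19 encodes a membrane-anchored metalloprotease of the ADAM family, which sheds the outer parts of proteins such as neuregulins and is needed for heart development in mice. Sepp1, now called Selenop, encodes the secreted selenoprotein that carries selenium between tissues. Pgm5 encodes aciculin, a relative of phosphoglucomutase without appreciable enzyme activity that sits at cell adhesion plaques with dystrophin and utrophin in muscle. Aatk encodes LMTK1, a membrane-bound kinase studied mainly in neurons, where it is a target of CDK5 with p35. Igdcc4, also called Nope, encodes a cell surface receptor of the immunoglobulin superfamily in the DCC and neogenin branch.

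The genes lie on 4 chromosomes. In the mouse build GRCm38, Igdcc4 spans chr9:65101486-65137940 (+ strand), Adam19 chr11:46055992-46147343 (+), Aatk chr11:120007313-120047167 (- strand), Sepp1 chr15:3268547-3280508 (+) and Pgm5 chr19:24683016-24861855 (-). Sepp1 shares 439 exon bases with Ccdc152 on the opposite strand, and the strand setting of the counting is not given, so that reads there cannot be assigned from the labels. Ccdc152 averaged 72.3 RPM at E16.5 and 2.45 RPM in P6 small oocytes, while Sepp1 averaged 7.38 RPM at E16.5 and 115 RPM in P6 small oocytes. Ccdc152 was also higher in P4 small than in P4 large oocytes, at 4.26 and 0.813 RPM, and in P6 small than in P6 large oocytes, where it averaged 0.458 RPM. It averaged 2.20 RPM at D13 and 7.87 RPM at D11. The part of antisense reads in the Sepp1 values was not tested. Adam19 shares 587 exon bases with the antisense gene Gm16033 and 480 with Gm16034, neither of which is a row of the table.

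Promoters were read from RefSeq (GRCm38.p6) as windows of 300 bases, 250 before and 50 after an annotated start, and all 5 genes matched, with 12 windows in all. The following 3 windows are shown because 2 hold the word bound by forkhead factors such as Foxo3 and the third, of Pgm5, holds none of the forkhead, hypoxia or Nobox words searched. Capitals mark GTAAACA (forkhead) and ACGTG or GCGTG (the words of hypoxia-inducible factors), on either strand, and would mark TAATTG (Nobox), which was in none of the 12 windows.
Adam19, chr11:46054252-46054551 (+): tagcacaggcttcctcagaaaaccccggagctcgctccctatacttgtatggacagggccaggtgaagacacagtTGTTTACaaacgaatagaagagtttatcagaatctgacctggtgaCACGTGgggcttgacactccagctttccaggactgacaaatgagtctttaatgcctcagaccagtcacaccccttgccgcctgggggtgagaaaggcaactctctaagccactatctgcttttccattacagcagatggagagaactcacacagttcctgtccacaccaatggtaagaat
Sepp1, chr15:3270727-3271026 (+): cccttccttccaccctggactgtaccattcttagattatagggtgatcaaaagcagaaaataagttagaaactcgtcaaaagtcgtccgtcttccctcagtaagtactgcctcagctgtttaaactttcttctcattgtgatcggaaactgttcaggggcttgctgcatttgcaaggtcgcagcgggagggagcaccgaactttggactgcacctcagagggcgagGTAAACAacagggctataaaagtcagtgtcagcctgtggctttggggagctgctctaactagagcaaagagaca
Pgm5, chr19:24861793-24862092 (-): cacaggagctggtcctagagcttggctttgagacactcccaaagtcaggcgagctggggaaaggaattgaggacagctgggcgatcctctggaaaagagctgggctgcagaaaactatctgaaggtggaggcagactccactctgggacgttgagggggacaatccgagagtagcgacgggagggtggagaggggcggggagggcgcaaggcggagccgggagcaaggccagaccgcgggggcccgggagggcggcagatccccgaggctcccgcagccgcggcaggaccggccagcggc
The forkhead word began 175 bases before the start in Adam19, as TGTTTAC, and 24 bases before it in Sepp1. It was in a window of 2 of the 5 genes, against 4.05% of 27025 genes and 3.65% of 32851 windows. The other windows of these 2 genes, which have 3 each, did not hold it. Among them was the Adam19 window at chr11:46055734-46056033, which covers the start of the gene span given above. The 5 genes had more windows per gene than all genes together, so shares of genes are not like for like, for this word and those below. ACGTG was in 2 of the 5 genes, Adam19 and Aatk, against 21.8% of all genes, and GCGTG was in 3 of the 5, Adam19, Aatk and Igdcc4, against 35.2%. In the Adam19 window the letters CACGTG hold ACGTG on both strands and are also an E-box (CANNTG), a word found in 4 of the 5 genes and in 74.99% of all genes. The windows of Pgm5, Aatk and Igdcc4 were richer in G and C than most. G and C made up 66.3% of the Pgm5 window, 70.3% of an Aatk window and 84.7% of the Igdcc4 window, against 49.3% of the Adam19 and 48.3% of the Sepp1 window shown and a median of 52.7% over all windows. A word in a window is not a site shown to be bound.

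All 5 genes stood among the 12 genes with the highest small-oocyte excess on each day, as they were chosen to. Adam19 had 237, 171 and 288 RPM in P4 small oocytes, against 1.21, 0.660 and 1.73 RPM in P4 large oocytes. At P6 it had 360.4, 369 and 470.0 RPM in small oocytes, against 0.367, 0.618 and 0.281 RPM in large ones. It ranked 1 of 13326 genes at P4 and 1 of 13393 at P6, with differences of 6.73 and 8.14 on the log2(RPM + 1) scale, on which all differences below are given. Sepp1 had 154, 111 and 139.8 RPM in P4 small oocytes, against 5.52, 2.94 and 5.30 RPM in P4 large oocytes. In P6 small oocytes Sepp1 had 103, 111 and 131 RPM, against 0.576, 0.978 and 0.702 RPM in P6 large oocytes. Sepp1 had the smallest P4 difference of the 5, 4.63 at rank 12, and ranked 3 at P6, with 6.05.

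Pgm5, Aatk and Igdcc4 had the same form. Pgm5 had 54.7, 37.8 and 39.4 RPM in P4 small oocytes, against 0.403, 0.180 and 0.173 RPM in P4 large oocytes. It had 68.3, 74.8 and 70.0 RPM in P6 small oocytes, against 1, 3 and 2 reads in P6 large oocytes. These are at or under 3 reads, so its P6 difference of 6.03 is set by the pseudocount. The pseudocount also shrinks other P4 and P6 differences where large oocytes had few reads. Pgm5 had 7, 3 and 3 reads in P4 large oocytes. In P6 large oocytes Aatk had 4, 9 and 4 reads and Adam19 7, 12 and 6 reads. Aatk had 73.4, 31.4 and 51.1 RPM in P4 small oocytes, against 1.27, 0.180 and 0.749 RPM in P4 large ones. In P6 small oocytes Aatk had 67.4, 101 and 61.7 RPM, against 0.210, 0.463 and 0.187 RPM in P6 large ones. Igdcc4, the receptor, had 109.8, 116 and 133 RPM in P4 small oocytes, against 2.82, 2.04 and 3.74 RPM in P4 large oocytes. Its P6 values were 92.9, 98.3 and 107 RPM in small oocytes, against 0.576, 1.49 and 1.22 RPM in large ones. Small and large libraries did not overlap for any of the 5 genes on either day. Foxo3, the gene the series is about, was also higher in small oocytes, at 178, 171 and 215 RPM at P4, against 94.96, 88.7 and 101 RPM in large ones.

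Within the small oocytes the genes parted. From P4 to P6, Adam19 and Pgm5 were higher at P6 without overlap, by 0.80 and 0.70, and Aatk was higher by 0.60 with overlapping libraries. Igdcc4 was lower in P6 than in P4 small oocytes without overlap, by -0.26, and Sepp1 was lower by -0.23 with overlap. Against P3, whose oocytes were not split by size, P4 small oocytes overlapped for all 5 genes, with differences between -0.04 for Igdcc4 and 0.51 for Pgm5. Sums over 18 granulosa cell markers were 26.3 to 34.5 RPM in P6 small and 72.2 to 84.3 RPM in P6 large oocytes. At P4 they were 38.4 to 50.82 RPM in small and 50.79 to 63.8 RPM in large oocytes. Inha, the marker of that list with the highest mean, went the other way. It averaged 2.64 RPM in P4 small and 0.332 RPM in P4 large oocytes, and 1.55 and 0.445 RPM at P6. Fshr was at 0 in the small oocytes of both days, but also at D11, where the sums were 409 to 752 RPM. Sums over 13 stroma and theca markers were 12.1 to 35.4 RPM in P6 small and 2.93 to 4.50 RPM in P6 large oocytes, and at P4 16.1 to 25.01 RPM in small and 4.03 to 6.00 RPM in large oocytes. Cyp17a1 and Tcf21 of that list were at 0 in the small oocytes of both days. The part of these cells in the small-oocyte values was not tested.

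The earlier history of the 5 genes in fetal ovaries was not used to choose them. From E14.5 to E16.5, 3 of them fell and 2 rose, and no call was made from E16.5 to E18.5. Adam19 had 72.3, 111 and 121 RPM at E14.5, then 1.84, 3.31 and 12.1 RPM at E16.5 and 3.32, 4.28 and 3.64 RPM at E18.5. It fell by 4.20 (SE 0.43) between E14.5 and E16.5 (limma, adjusted p = 2.73e-07), a larger fall than in nearly all of 14905 genes, among which it ranked 14898 from the highest. Aatk fell by 1.36 (adjusted p = 0.00328), with 2.87, 7.06 and 7.78 RPM at E14.5, 1.74, 1.08 and 1.86 RPM at E16.5 and 2.03, 0.930 and 1.02 RPM at E18.5. Sepp1 fell by 1.28 (adjusted p = 0.0074), with 21.7, 13.98 and 20.6 RPM at E14.5, 6.75, 4.54 and 10.9 RPM at E16.5 and 6.08, 8.79 and 6.75 RPM at E18.5. The E16.5 libraries lay below those of E14.5 without overlap for these 3 genes.

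Pgm5 and Igdcc4 went the other way over the same step. Pgm5 rose by 1.79 (adjusted p = 0.000356). It had 0.0495, 0.192 and 0.494 RPM at E14.5, 2.43, 2.59 and 5.33 RPM at E16.5 and 0.992, 3.72 and 2.09 RPM at E18.5. Its E14.5 values are 1, 4 and 8 reads, so the size of this rise depends on the pseudocount. Igdcc4 rose by 0.66 (adjusted p = 0.0252), with 12.5, 26.3 and 28.6 RPM at E14.5, 35.4, 40.3 and 27.6 RPM at E16.5 and 34.6, 42.6 and 38.0 RPM at E18.5. Its E14.5 and E16.5 libraries overlapped, and the call was lost without replicate 1 of E14.5 or without replicate 1 or 2 of E16.5, which left 1 of the 5 genes higher. Over all genes, 41.9% rose and 23.9% fell at this step, so 2 of 5 higher and 3 of 5 lower are read against a large background. With median-of-ratios scaling the split was 4798 higher and 4765 lower genes, against 6242 and 3563 without it. Granulosa markers summed to 44.0 to 60.3 RPM at E14.5 and 142 to 172 RPM at E16.5. Of 14 tested, 10 rose and 1 fell. Stroma and theca markers summed to 11.3 to 14.6 RPM at E14.5 and 54.9 to 102 RPM at E16.5. Of 9 tested, 4 rose and none fell. The part of these cells in the rises of Pgm5 and Igdcc4 was not tested. From E16.5 to E18.5 none of the 5 genes passed, with changes of -0.47 to 0.16 in limma, none at an unadjusted p under 0.05 and none by edgeR or DESeq2, while 58.6% of all genes changed.

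Around birth the 5 genes rose together. At P1, 5 of 5 were higher than at E18.5, against 18% of all genes. Adam19 had 3.32, 4.28 and 3.64 RPM at E18.5, 37.0, 97.3 and 72.4 RPM at P1 and 129.9, 226 and 173 RPM at P3. Its rise between E18.5 and P1, 3.78 (SE 0.43, adjusted p = 7.01e-06), ranked 1 of 14905 genes. Aatk had 16.0, 18.4 and 12.98 RPM at P1 and 26.7, 77.5 and 33.9 RPM at P3, and its rise to P1 was 2.87 (SE 0.36, adjusted p = 1.71e-05), rank 21. All P1 libraries of Adam19 and Aatk lay above all E18.5 libraries.

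Sepp1, the selenium carrier, had 17.9, 69.0 and 67.4 RPM at P1 and 91.4, 103 and 116 RPM at P3. It rose by 2.46 to P1 (SE 0.38, adjusted p = 0.00012), rank 55. Igdcc4, already at 34.6 to 42.6 RPM at E18.5, had 82.7, 146 and 105 RPM at P1 and 112, 129 and 127 RPM at P3, a rise of 1.48 to P1 (SE 0.24, adjusted p = 0.000199). Pgm5 had 3.82, 9.57 and 5.83 RPM at P1 and 33.7, 40.7 and 19.9 RPM at P3. Its rise to P1 was the smallest of the 5, 1.19 (adjusted p = 0.0153), and was lost without replicate 2 of P1 or replicate 1 of E18.5, which left 4 of 5 called. Foxo3 moved the other way, with a fall of 0.42 at P1 (adjusted p = 0.0156). Granulosa markers summed to 58.6 to 72.5 RPM at P1, against 67.5 to 142 RPM at E18.5, and 4 of 14 tested fell while none rose. Stroma and theca markers summed to 18.7 to 32.1 RPM at P1, against 42.1 to 82.3 RPM at E18.5, and 5 of 9 tested fell while none rose.

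Between P1 and P3 the rise went on most clearly in Pgm5. Pgm5 rose by 2.15 (SE 0.36, adjusted p = 0.00294), rank 9 of 14905. Aatk rose by 1.35 (adjusted p = 0.0297) and Adam19 by 1.41 (adjusted p = 0.0497), so 3 of 5 were called higher, against 3.94% of all genes. By edgeR and DESeq2 2 of 5 were called, Pgm5 and Aatk, and with a pseudocount of 0.1 or without the filter 1, Pgm5. Sepp1 differed by 1.21 (adjusted p = 0.06), with no overlap of the libraries, and Igdcc4 by 0.18 (95% interval -0.34 to 0.69, adjusted p = 0.72), with overlap. The Adam19 call was lost without any single library of P3 and without replicate 1 or 3 of P1, and the Aatk call without replicate 2 or 3 of P3 or replicate 1 or 3 of P1. Sepp1 passed without replicate 2 or 3 of P1. The count of genes called higher lay between 1 and 4 when 1 library was left out. It was 1, Pgm5, without replicate 2 or 3 of P3 or replicate 1 of P1. With median-of-ratios scaling 741 genes were higher and 486 lower at P3, against 587 and 662 without it.

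**Figure D1:**
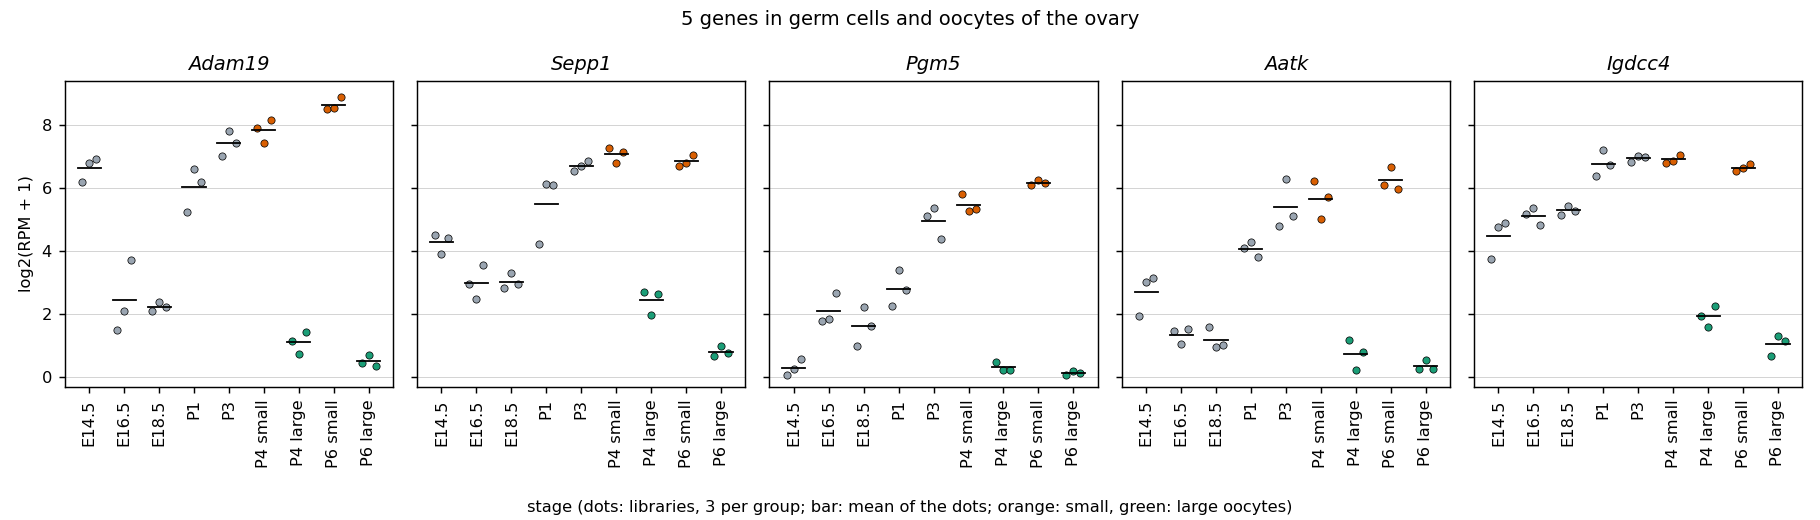
Levels of the 5 genes in ovarian germ cells and oocytes, as log2(RPM + 1) on the vertical axis, with groups from E14.5 to P6 on the horizontal axis; dots are libraries (3 per group) and bars their means. All 5 genes were higher at P1 than at E18.5 and stayed high in small oocytes, while the large oocytes of P4 and P6 had 5.52 RPM or less of each; Igdcc4 was already at 34.6 to 42.6 RPM at E18.5.

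Set against P6 small oocytes, the genes reached their small-oocyte level at different times. Igdcc4 averaged 112% of its P6 small level at P1 and 123% at P3. Sepp1 averaged 44.8% at P1 and 90.1% at P3, Aatk 20.6% and 59.9%, Adam19 17.2% and 44.2%, and Pgm5 9.02% and 44.3%. Over all 24 groups the highest mean was in P6 small oocytes for Adam19 (399.7 ± 61.0 RPM, SD, n = 3) and Pgm5 (71.0 ± 3.38 RPM, SD, n = 3). Sepp1 was highest in P4 small oocytes (135 ± 21.6 RPM, SD, n = 3) and Igdcc4 at P3 (123 ± 9.30 RPM, SD, n = 3). Aatk was highest in Foxo3dNES hypoxia at D21 (90.6 ± 0.527 RPM, SD, n = 2), whose libraries overlapped those of P6 small oocytes (76.8 ± 21.4 RPM, SD, n = 3). The lowest mean was at D20 for Adam19, Sepp1, Aatk and Igdcc4 and in P6 large oocytes for Pgm5. Of the 23 pairs of groups next to each other in this order, libraries overlapped in 21 for Adam19 and 16 for Sepp1. They overlapped in 20 each for Pgm5, Aatk and Igdcc4. Groups next to each other are the closest in mean, and overlap of 2 or 3 libraries is not a test of a difference. The exact order of neighbours is therefore uncertain.

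In culture the genes did not start alike. Adam19 and Aatk were highest at D5 and went down to D11, and Sepp1, Pgm5 and Igdcc4 went up. Adam19 had 148, 67.5 and 145 RPM at D5, 113, 108 and 103 RPM at D7, 107, 72.5 and 83.9 RPM at D9, 70.2, 76.5 and 54.1 RPM at D10 and 60.5, 74.6 and 35.4 RPM at D11. Aatk had 21.9, 16.2 and 17.6 RPM at D5, 8.34, 4.44 and 7.90 RPM at D7, 7.50, 5.77 and 5.62 RPM at D9, 5.74, 6.60 and 3.54 RPM at D10 and 2.63, 7.98 and 1.77 RPM at D11. Between D5 and D11 Aatk fell by 2.11 (SE 0.34, adjusted p = 1.65e-05) and Adam19 by 1.05 (SE 0.35, adjusted p = 0.0164), 2 of 5 against 15% of all genes. The D5 and D11 libraries of Aatk did not overlap, while those of Adam19 did. The Adam19 call was lost without replicate 3 of D11 and without replicate 1 or 3 of D5, which left 1 gene lower.

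Sepp1, Pgm5 and Igdcc4 rose between D5 and D11, 3 of 5 against 31.2% of all genes. Igdcc4 had 23.3, 10.5 and 26.8 RPM at D5, 19.9, 18.0 and 16.1 RPM at D7, 34.1, 69.1 and 53.0 RPM at D9, 84.8, 76.2 and 99.1 RPM at D10 and 75.6, 102 and 136 RPM at D11, a rise of 2.37 (SE 0.33, adjusted p = 2.3e-06). Its D11 mean was 105% of that in P6 small oocytes. Pgm5 had 0.0493, 0.132 and 0.306 RPM at D5, 0, 1.51 and 0.194 RPM at D7, 2.84, 2.61 and 3.96 RPM at D9, 1.97, 4.87 and 6.39 RPM at D10 and 2.20, 10.5 and 5.45 RPM at D11. It rose by 2.42 (SE 0.38, adjusted p = 1.2e-05) and reached 8.54% of its P6 small mean. Its D5 values are 1, 3 and 6 reads, so the size of this rise depends on the pseudocount. Sepp1 had 13.3, 13.6 and 17.2 RPM at D5, 10.8, 8.03 and 10.9 RPM at D7, 31.0, 27.9 and 30.6 RPM at D9, 49.3, 53.4 and 47.7 RPM at D10 and 33.9, 173 and 26.3 RPM at D11. The highest Sepp1 value, 173 RPM, was in replicate 2 of D11, and the rise of 1.82 (SE 0.44, adjusted p = 0.00152) was 0.99 without that library and stayed called. With median-of-ratios scaling 4210 genes were higher and 3270 lower at D11 than at D5, against 5019 and 2413 without it.

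Markers of other cells moved over the same days. Replicate 2 of D11 held 1994 RPM of stroma and theca markers, against 223 and 219 RPM in replicates 1 and 3. Its granulosa markers summed to 752 RPM, against 429 and 409 RPM in the other D11 libraries. Between D5 and D11, 13 of 18 granulosa markers, 12 of 12 stroma and theca markers and 6 of 7 blood and immune markers tested rose. Fshr was at 0 in D5 and D11 alike. The part of these cells in the rises of Sepp1, Pgm5 and Igdcc4 was not tested.

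The 5 genes fell together between D11 and D13, the step at which the label changes from germ cell to oocyte. At D13 5 of 5 were lower than at D11, against 50.7% of all genes. Adam19 fell to 6.07, 8.55 and 5.34 RPM at D13, by 2.87 (SE 0.35, adjusted p = 1.11e-07), and Igdcc4 to 14.1, 14.2 and 14.4 RPM, by 2.75 (SE 0.33, adjusted p = 7.94e-08). Sepp1 fell to 9.31, 12.9 and 13.1 RPM, by 2.12 (adjusted p = 0.000153), or by 1.29 without replicate 2 of D11. Aatk fell to 0.636, 0 and 0.726 RPM, by 1.67 (adjusted p = 0.000114), and Pgm5 to 0.578, 2.23 and 1.04 RPM, by 1.51 (adjusted p = 0.00102). The D13 libraries of Adam19, Sepp1, Aatk and Igdcc4 lay below all of their D11 libraries, and for Pgm5 the groups overlapped by 1 value, 2.23 RPM at D13 against 2.20 RPM at D11. By edgeR (adjusted p = 0.0843) and DESeq2 (adjusted p = 0.0598) Pgm5 was not called, which left 4 of 5. The median gene was lower at D13 by -0.50, or by -0.15 after median-of-ratios scaling, under which the falls of the 5 genes were 1.18 to 2.45 and all 5 stayed called. That scaling gave 4866 higher and 6039 lower genes, against 3184 and 8142 without it. Over the same step 12 of 18 granulosa, 12 of 12 stroma and theca, 6 of 7 blood and immune and 4 of 7 endothelial markers fell, and their part in the falls was not tested.

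From D13 to D20, 3 of 5 genes fell further, against 25.5% of all genes. Sepp1 had 7.96, 2.54 and 1.49 RPM at D15, 1.24, 1.32 and 0.962 RPM at D17 and 0.407, 0.381 and 0.293 RPM at D20. Its fall of 3.22 (SE 0.44, adjusted p = 1.46e-06) ranked 16049 of 16065 genes from the highest, among the largest falls. Igdcc4 had 6.30, 2.83 and 4.22 RPM at D15, 1.34, 3.46 and 0.902 RPM at D17 and 1.22, 0.489 and 1.11 RPM at D20, a fall of 2.99 (SE 0.33, adjusted p = 5.22e-08). Adam19 had 4.28, 1.19 and 0.682 RPM at D15, 0.103, 1.26 and 0.601 RPM at D17 and 0.407, 0.326 and 0.234 RPM at D20, a fall of 2.51 (SE 0.35, adjusted p = 1.83e-06). In P6 large oocytes Adam19 had 0.281 to 0.618 RPM, Sepp1 0.576 to 0.978 RPM and Igdcc4 0.576 to 1.49 RPM. The D20 libraries overlapped these ranges for Adam19 and Igdcc4 and lay below them for Sepp1. Pgm5 differed by -0.89 (limma, adjusted p = 0.0559) and Aatk by -0.32 (adjusted p = 0.496). Aatk had 11, 0 and 14 reads at D13 and 1, 2 and 4 reads at D20. Pgm5 had 10, 49 and 20 reads at D13 and 3, 1 and 5 reads at D20. Levels this low left little room for a further fall on the log2(RPM + 1) scale. Pgm5 passed without replicate 1 of D13 (adjusted p = 0.034), and it was also called, which makes 4 of 5 genes lower, with a pseudocount of 0.1, under median-of-ratios scaling and by edgeR and DESeq2. Median-of-ratios scaling gave 4350 higher and 3316 lower genes at D20, against 3309 and 4102 without it.

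**Figure D2:**
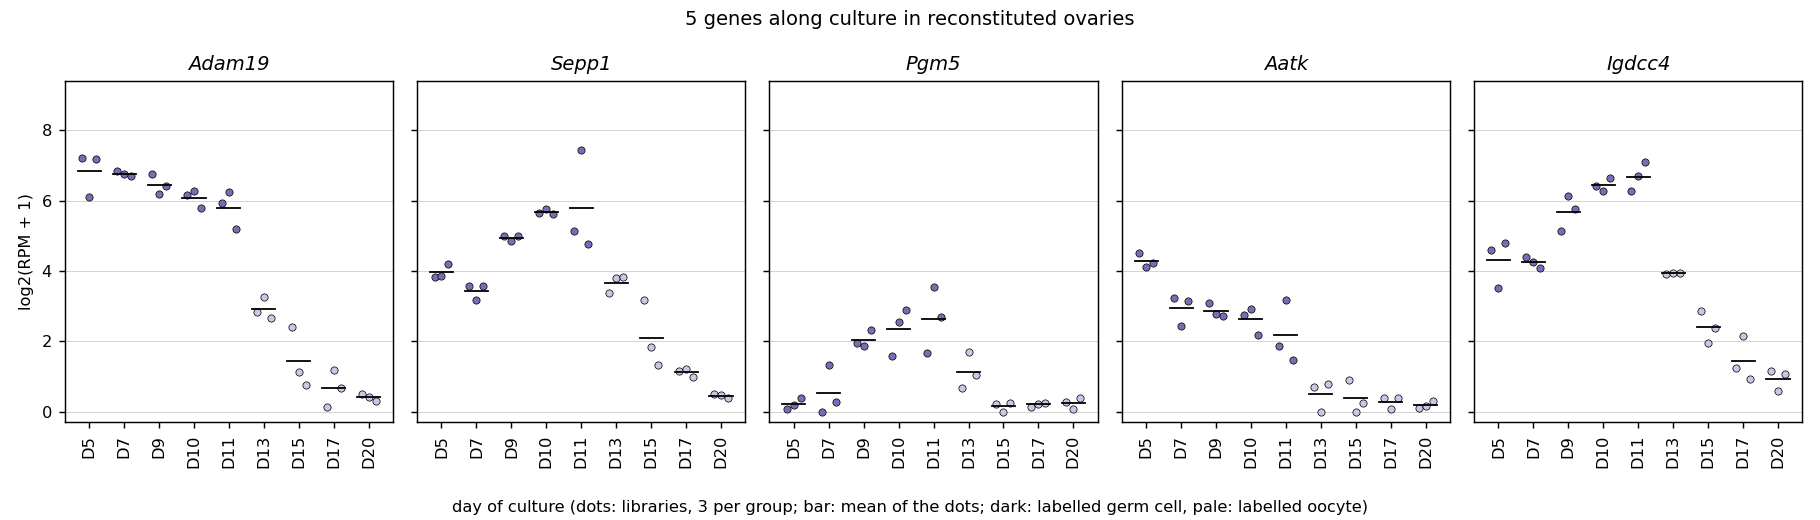
Levels of the 5 genes along culture, as log2(RPM + 1) on the vertical axis, against the day of culture from D5 to D20; dots are libraries (3 per group), bars their means, and darker dots mark days labelled germ cell. The highest mean was at D11 for Sepp1, Pgm5 and Igdcc4 and at D5 for Adam19 and Aatk, and all 5 were lower at D13 than at D11. For Sepp1 the D11 mean was raised by replicate 2, at 173 RPM against 33.9 and 26.3 RPM in the other D11 libraries.

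At the end of the germ cell days, D11 cells in culture differed from E18.5 cells of the ovary in the same direction for all 5 genes. In a joint model of 42 libraries 5 of 5 were higher at D11, against 34.6% of all genes. Adam19 averaged 56.8 ± 19.9 RPM at D11 and 3.75 ± 0.488 RPM at E18.5 (SD, n = 3 each), a difference of 3.55 (SE 0.40, adjusted p = 8.02e-09). Sepp1 averaged 77.7 ± 82.4 RPM at D11 and 7.21 ± 1.41 RPM at E18.5 (SD, n = 3 each), a difference of 2.76 (adjusted p = 3.36e-06), or 1.93 without replicate 2 of D11. Igdcc4 was higher by 1.39 (adjusted p = 0.000332), Pgm5 by 1.01 (adjusted p = 0.0265) and Aatk by 0.98 (adjusted p = 0.0212). The calls of both Pgm5 and Aatk were lost without replicate 2 of D11 or replicate 3 of E18.5, which left 3 of 5, and were 0.56 and 0.48 without the first of these. Pgm5 alone was lost without replicate 3 of D11 or replicate 1 of E18.5 and by edgeR and DESeq2, and Aatk alone without replicate 2 of E18.5. Foxo3 was lower at D11, by -1.51 (adjusted p = 5.41e-05). Culture, strain and the day chosen cannot be told apart in this comparison, and 14 of 18 granulosa and 11 of 12 stroma and theca markers were higher at D11 as well.

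The D21 cultures were divided by oxygen and by Foxo3dNES, and they did not continue the levels of D20. Adam19 averaged 54.5 RPM in WT normoxia at D21 and 0.323 RPM at D20, and Sepp1 28.8 and 0.360 RPM. Pgm5 averaged 7.39 and 0.184 RPM, Aatk 20.3 and 0.137 RPM and Igdcc4 29.4 and 0.942 RPM in these groups. The granulosa marker Inha averaged 84.4 RPM in WT normoxia and 0.564 RPM at D20. What sets D21 apart from D20 was not tested. Foxo3 itself had 367 and 364 RPM in Foxo3dNES hypoxia, 128 and 123 RPM in WT hypoxia, 322 and 324 RPM in Foxo3dNES normoxia and 88.5 and 44.8 RPM in WT normoxia. Without an oxygen label it had 318 and 267 RPM in Foxo3dNES and 57.0 and 89.1 RPM in WT oocytes. Every Foxo3dNES library lay above every WT library, as their labels would have it, and the row does not separate transgene from endogenous reads. The difference at normoxia was 2.34, with an adjusted p of 0.0618 over all genes.

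In WT oocytes at D21, 4 of the 5 genes rose in hypoxia, against 15.9% of all genes. Adam19 had 302 and 242 RPM in WT hypoxia, against 64.8 and 44.2 RPM in WT normoxia. Its difference of 2.31 (SE 0.30, 95% interval 1.64 to 2.98, adjusted p = 0.00486) ranked 3 of 14392 genes. Aatk had 79.7 and 64.7 RPM in WT hypoxia, against 25.2 and 15.4 RPM in WT normoxia, a rise of 1.81 (SE 0.37, adjusted p = 0.0129). Pgm5 had 32.1 and 24.9 RPM in WT hypoxia, against 7.29 and 7.50 RPM in WT normoxia, a rise of 1.80 (SE 0.34, adjusted p = 0.0115). Igdcc4 had 80.2 and 62.1 RPM in WT hypoxia, against 40.0 and 18.7 RPM in WT normoxia, a rise of 1.33 (SE 0.30, adjusted p = 0.0163). Sepp1 had 41.3 and 34.1 RPM in WT hypoxia, against 31.2 and 26.5 RPM in WT normoxia. Its difference was 0.37, with a 95% interval of -0.05 to 0.80 (adjusted p = 0.178). Hypoxia and normoxia libraries did not overlap for any of the 5, Sepp1 included. The share of all genes without such overlap was not counted.

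These calls rest on 2 libraries per group. Without replicate 1 of WT hypoxia none of the 5 passed, without its replicate 2 only Adam19 did, and without replicate 2 of WT normoxia Aatk was lost, 3 remained and the rise of Igdcc4 was 0.81. With median-of-ratios scaling the rises of the 4 genes were 1.13 to 2.11, and 1598 genes were higher and 1460 lower in WT hypoxia, against 2295 and 942 without it. Foxo3 rose by 0.99 (adjusted p = 0.0348). Set against P6 small oocytes, WT hypoxia reached 94.0% of the mean for Aatk, 71.6% for Igdcc4, 68.0% for Adam19, 40.1% for Pgm5 and 32.8% for Sepp1. WT normoxia reached 26.5% for Aatk, 29.5% for Igdcc4, 13.6% for Adam19, 10.4% for Pgm5 and 25.1% for Sepp1. Oocyte markers summed to 25883 to 27836 RPM in WT hypoxia, against 37477 to 49987 RPM in WT normoxia. Granulosa markers summed to 54.3 to 64.6 RPM in WT hypoxia, against 169 to 356 RPM in WT normoxia. Of these granulosa markers 7 of 15 tested fell and none rose, and their part in the rises was not tested.

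**Figure D3:**
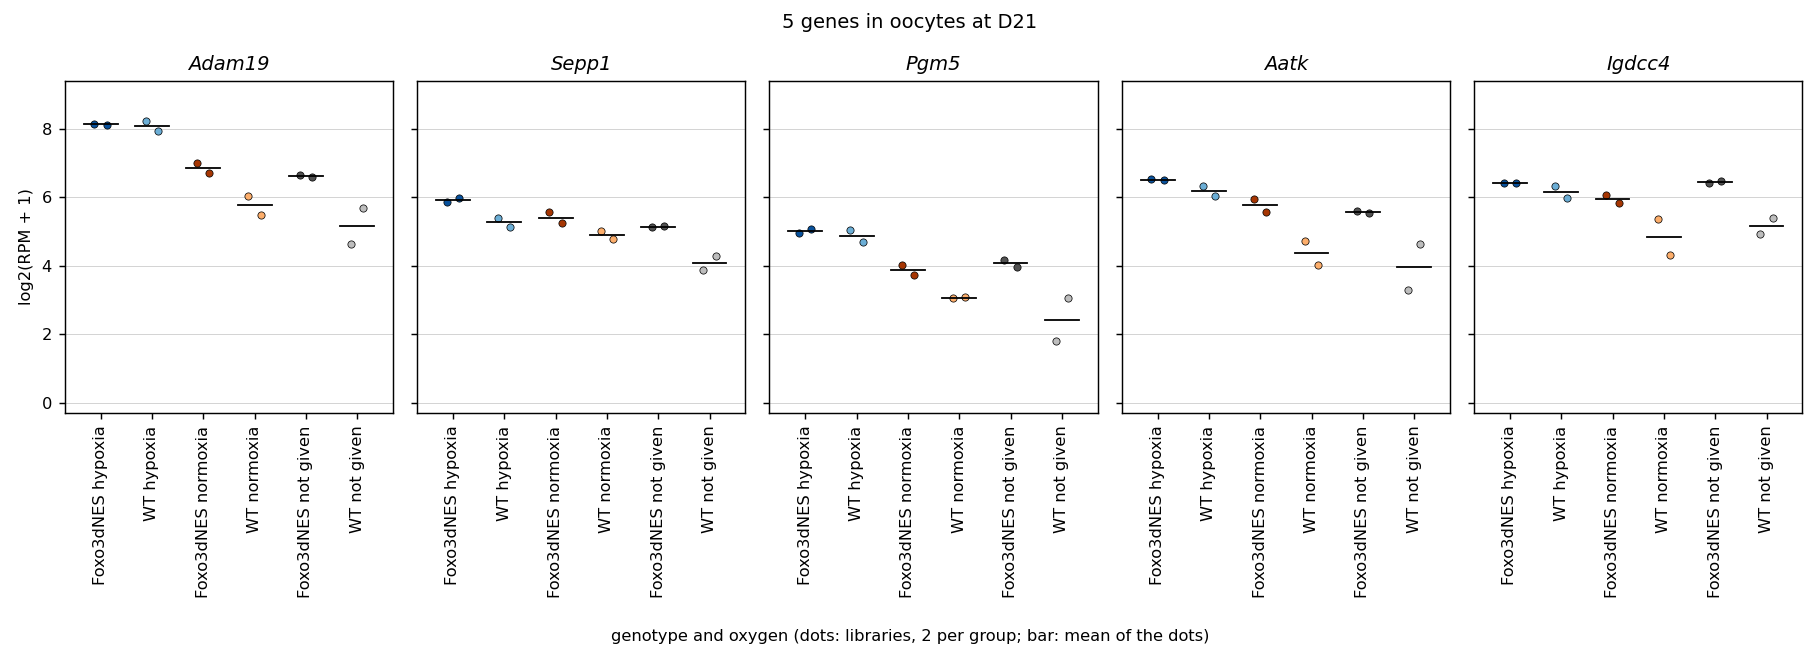
RPM of the 5 genes in the D21 libraries as log2(RPM + 1) on the vertical axis, by group: Foxo3dNES hypoxia, WT hypoxia, Foxo3dNES normoxia, WT normoxia, and Foxo3dNES and WT without an oxygen label; dots are libraries (2 per group) and bars their means. Adam19 was at 242 to 302 RPM in the 4 hypoxia libraries and at 126 RPM or less in the other 8.

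In Foxo3dNES oocytes no member passed the test for hypoxia against normoxia, where 0.153% of all genes were called higher. Adam19 had 283 and 279 RPM in Foxo3dNES hypoxia, against 126 and 104 RPM in Foxo3dNES normoxia, a difference of 1.29 (95% interval 0.62 to 1.96, adjusted p = 0.0797 by limma). Pgm5 had 29.9 and 32.5 RPM in Foxo3dNES hypoxia, against 15.3 and 12.3 RPM in Foxo3dNES normoxia, a difference of 1.13 (adjusted p = 0.167). Aatk had 91.0 and 90.2 RPM in Foxo3dNES hypoxia, against 61.1 and 47.0 RPM in Foxo3dNES normoxia (difference 0.75, adjusted p = 0.406). Sepp1 had 57.6 and 61.6 RPM in Foxo3dNES hypoxia, against 46.2 and 37.1 RPM in Foxo3dNES normoxia (0.51, adjusted p = 0.256). Igdcc4 had 84.4 and 84.2 RPM in Foxo3dNES hypoxia, against 66.4 and 56.4 RPM in Foxo3dNES normoxia (0.46, adjusted p = 0.535). Each gene was higher in both hypoxia libraries than in both normoxia libraries, but the share of all genes apart in this way was not counted. Granulosa markers summed to 51.0 to 70.2 RPM in Foxo3dNES hypoxia, against 191 to 262 RPM in Foxo3dNES normoxia. Of these, 4 of 15 tested fell by limma, 7 were called by edgeR and 10 by DESeq2, and their part in the differences was not tested. At an unadjusted p under 0.05 limma gave 3 of the 5, while edgeR called 1, Adam19, and DESeq2 called 2, Adam19 and Pgm5, on recovered reads.

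The change under hypoxia was smaller in Foxo3dNES than in WT oocytes for 4 of the 5 genes as estimated, but the difference between these changes passed for none of them and for 0% of all genes. The interaction was -1.07 for Aatk (95% interval -2.23 to 0.10), -1.03 for Adam19 (-1.98 to -0.08) and -0.88 for Igdcc4, each with an adjusted p of 0.647 by limma. It was -0.67 for Pgm5 (adjusted p = 0.649) and 0.14 for Sepp1 (adjusted p = 0.854). In limma 1 of the 5, Adam19, had an unadjusted p under 0.05, and edgeR and DESeq2 called none. Without replicate 1 of WT normoxia the interaction of Igdcc4 passed, at -1.40 (adjusted p = 0.018).

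At normoxia all Foxo3dNES libraries lay above all WT libraries for each of the 5 genes, but none was called. How many of all genes lay apart in this way was not counted, so the 5 cannot be said to stand out by it. The differences were 1.40 for Aatk, 1.13 for Igdcc4 and 1.08 for Adam19, each with an adjusted p of 0.108 by limma, 0.81 for Pgm5 (adjusted p = 0.187) and 0.51 for Sepp1 (adjusted p = 0.154). All 5 had an unadjusted p under 0.05, edgeR called none, and DESeq2 called 3, Adam19, Aatk and Igdcc4. Over all genes 0.00695% was called, which is 1 gene, Scx, named after its value was seen, with 41.8 RPM in Foxo3dNES and 2.50 RPM in WT normoxia. Without replicate 1 of WT normoxia 4 of the 5 genes were called, all but Pgm5, with a difference of 1.35 for Adam19, 1.73 for Aatk, 1.65 for Igdcc4 and 0.63 for Sepp1.

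In hypoxia the intervals of the genotype difference were wide around small values for 4 genes. They ran from -0.62 to 0.72 for Adam19, -0.62 to 0.90 for Pgm5, -0.50 to 1.16 for Aatk and -0.41 to 0.92 for Igdcc4. Sepp1 had 57.6 and 61.6 RPM in Foxo3dNES hypoxia, against 41.3 and 34.1 RPM in WT hypoxia, a difference of 0.65 (95% interval 0.23 to 1.08). All 5 had an adjusted p of 1 in limma, with Sepp1 alone at an unadjusted p under 0.05, and edgeR and DESeq2 called none. Again 0.00695% of all genes was called, which was Scx, at 34.2 RPM in Foxo3dNES and 1.54 RPM in WT hypoxia. Foxo3dNES hypoxia reached 118% of the P6 small mean for Aatk, 84.8% for Igdcc4, 70.2% for Adam19, 51.9% for Sepp1 and 44.0% for Pgm5.

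Where no oxygen level was given, 5 of 5 genes were higher in Foxo3dNES than in WT oocytes, against 6.25% of all genes. Adam19 had 99.9 and 96.3 RPM in Foxo3dNES, against 23.7 and 50.4 RPM in WT oocytes, a difference of 1.47 (adjusted p = 0.034). Pgm5 had 17.1 and 14.6 RPM in Foxo3dNES, against 2.48 and 7.36 RPM in WT oocytes (1.64, adjusted p = 0.034). Aatk had 47.4 and 45.3 RPM in Foxo3dNES, against 8.88 and 24.02 RPM in WT oocytes (1.59, adjusted p = 0.0393). Igdcc4 had 84.2 and 88.5 RPM in Foxo3dNES, against 29.5 and 41.0 RPM in WT oocytes (1.29, adjusted p = 0.0391). Sepp1 had 33.8 and 34.98 RPM in Foxo3dNES, against 13.8 and 18.6 RPM in WT oocytes (1.05, adjusted p = 0.032). No Foxo3dNES library overlapped a WT library for any of the 5, but the share of all genes of which this holds was not counted. None of these calls was left without either Foxo3dNES library or without replicate 1 of WT, and edgeR made none. Without that WT library the differences were 0.95 for Adam19, 1.01 for Pgm5 and 0.92 for Aatk. DESeq2 called all 5, and so did limma with median-of-ratios scaling. Under that scaling 669 genes were higher and 209 lower, against 899 and 87 without it. Granulosa markers summed to 542 to 772 RPM in these Foxo3dNES libraries, against 273 to 302 RPM in the WT libraries, and their part was not tested.

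**Figure D4:**
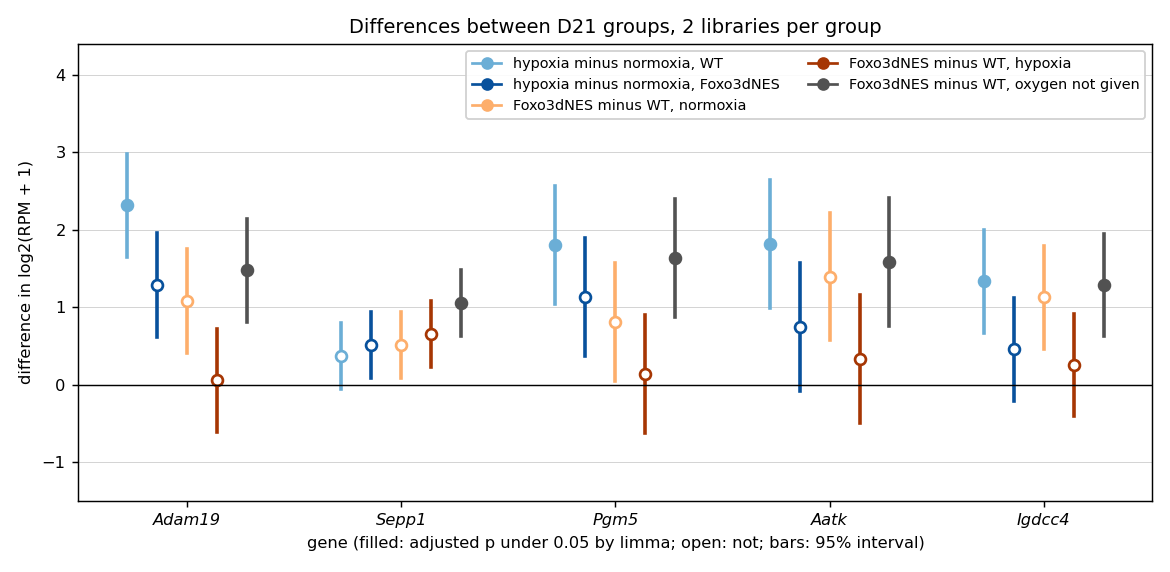
Differences on the log2(RPM + 1) scale with 95% intervals (vertical axis) for each of the 5 genes (horizontal axis) in the D21 comparisons; filled points passed an adjusted p of 0.05 over all genes. Under hypoxia 4 genes passed in WT oocytes and none in Foxo3dNES oocytes, and the 5 genes passed between genotypes only where no oxygen level was given.

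Relatives and partners of the 5 genes did not move as a block. At P1 against E18.5, where 18% of all genes rose and 21.2% fell, 2 of 11 other ADAM proteases rose and 4 fell, Adam23 most (-1.94), with 3.18 RPM at P1 and 15.6 RPM at E18.5. Of 25 selenoproteins and selenium-handling genes 6 rose and 5 fell. Gpx1 and Gpx4, which are selenium-dependent peroxidases, rose by 1.23 and 1.20. Of 4 enzymatic phosphoglucomutases and relatives 3 rose, by 0.71 (Pgm2) to 1.16 (Pgm2l1). Of 12 genes of adhesion plaques and the dystrophin complex 5 rose and 2 fell, and Sgcd, a sarcoglycan, rose by 1.28. Of 5 genes of LMTK kinases and their partners CDK5 and p35, limma called 0, with 2 at an unadjusted p under 0.05, while edgeR called 1 and DESeq2 2. Of 12 genes of the DCC and neogenin family with its ligands 1 rose and 5 fell, Prtg most (-1.71). The medians of these lists lay between -0.38 and 0.75, beside a median of -0.05 over all genes.

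In WT hypoxia against WT normoxia, where 15.9% of all genes rose and 6.55% fell, each list held few called genes. Adam22 averaged 38.6 RPM in WT hypoxia and 9.58 RPM in WT normoxia and rose by 1.92. Adam12 rose by 1.40, and the other 6 tested ADAM genes did not pass. Pgm2 rose by 1.20 and Pgm2l1 by 0.81, which is 2 of 4. Lmtk2, a kinase related to Aatk, rose by 1.52 and was 1 of 5. Prtg rose by 1.10 and was 1 of 11 in the DCC and neogenin list. Of 12 adhesion and dystrophin genes Tln2 rose by 1.43 and Utrn, which is utrophin, by 1.23, while Sgce fell by 2.09 and Dmd, which is dystrophin, by 0.996. Of 25 selenium genes Eefsec rose by 0.59 and Sep15 fell by 0.55. List medians ran from -0.06 for selenium genes to 0.66 for ADAM genes, beside 0.14 over all genes.

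Between D11 and D13, where 50.7% of all genes fell, 7 of 11 ADAM genes fell and none rose, Adam8 most (-3.56). In the DCC and neogenin list 8 of 13 fell and 1 rose, and of the adhesion and dystrophin genes 8 of 14 fell and 3 rose. Of the selenium genes 13 of 26 fell and 7 rose, of the phosphoglucomutases 2 of 4 fell, and of the LMTK list 3 of 5 fell and 2 rose. List medians ran from -1.91 for the DCC and neogenin list to -0.35 for selenium genes, beside -0.50 over all genes.

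Across the 24 group means the 5 genes were alike but not the same, which is a description of groups that share strain and culture. Pearson's r of log2(RPM + 1) lay between 0.74 (Adam19 and Pgm5) and 0.94 (Sepp1 and Igdcc4), and between 0.64 and 0.94 over the 20 groups without P4 and P6. Among 12992 genes, those most like Adam19 were Syn3 and Smtnl2 and Nfatc1, each with r = 0.95. For Sepp1 they were Il13ra1, Kif21a and Traf6, each with r = 0.94. For Pgm5 they were Ebf1 and Aldh6a1, both with r = 0.97, and Ak7 (0.96). For Aatk, Dennd4b (0.94) and Galnt16 (0.93) were among them. For Igdcc4 they were Kif21a, Irak1 and Ttyh2, each with r = 0.96. Kif21a, a kinesin, was the 1 gene named for both Sepp1 and Igdcc4. The 24 groups include the P4 and P6 groups on which the members were chosen. Over the 20 groups without P4 and P6, r of the genes named here lay between 0.92 (Kif21a for Sepp1) and 0.97 (Aldh6a1 for Pgm5).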

How the data were processed

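Poly(A)+ RNA of 66 libraries was sequenced with a directional protocol, per the labels. The deposited table gives RPM (reads per 1000000 reads), which the authors made. Per the submitters' processing notes, build mm10 was used, with the tools featureCounts 1.5.1, TopHat2, R 3.4.4 and Bowtie2 2.0.13. Their settings, the annotation and the strand setting of counting are not given in the sources used here. RPM is not divided by gene length, so levels are not compared between genes. Each library sums to 1000000, and 99.9999% of values were whole multiples of 1 read within 0.01 of a read, so whole reads were recovered and gave the depths.

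Genes with a mean of at least 1 RPM in at least 1 group of a model were tested with limma 3.58.1 (R 4.3.3, trend) on log2(RPM + 1), two-sided, with Benjamini-Hochberg adjustment over all genes kept and a threshold of 0.05. The +1 understates changes of low genes. Models held the 15 libraries of E14.5 to P3 (14905 genes), the 27 of D5 to D20 (16065), the 12 of D21 (14392), or 42 for D11 against E18.5 (16407). Alternatives were log2(RPM + 0.1), no filter, median-of-ratios scaling, tests of recovered reads by DESeq2 1.42.0 or by edgeR 4.0.16 with quasi-likelihood and TMM scaling, a replicate block, other sets of libraries and leaving out each library. The scripts were tested on simulated data. No 2 libraries of a group agreed within sampling noise.

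The members and lists were chosen with earlier results of these data known. Named genes are the 5 members, Foxo3, up to 3 called genes of each family list with the largest change, and the 3 genes most like each member among those reaching 5 RPM in a group, leaving out predicted genes. Of the genes this rule names, 2 are not reported here.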

Additional observations from a re-analysis of the deposited data

How the results depend on the processing

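Of the tested differences of the 5 genes, 734 alternative values kept their direction and side of the threshold, 84 no longer passed, 25 passed newly and 7 changed sign, none of which was called with all libraries or without one. These came from leaving out 1 library, which gave -0.67 to 0.44 for Adam19 and -0.24 to 0.31 for Sepp1 at E18.5 against E16.5, -0.015 to 0.39 for Igdcc4 at P3 against P1, -0.10 to 0.21 for Adam19 and -0.040 to 0.32 for Pgm5 between genotypes in hypoxia, and -0.013 to 0.29 for the interaction of Sepp1. Of the untested differences between small oocytes and others, 145 moved by less than 1 SD and 15 by more. At E16.5 against E14.5 the number of the 5 genes called higher was 1 under median-of-ratios scaling, edgeR and DESeq2, against 2. At P3 against P1 it was 1 with a pseudocount of 0.1 and without the filter, against 3. At D11 against D5 1 gene was lower with a pseudocount of 0.1, against 2, and at D11 against E18.5 3 were higher with it, against 5. In Foxo3dNES hypoxia against normoxia it was 1 under scaling and edgeR and 2 under DESeq2 and without the 4 libraries that lack an oxygen label, against 0. For Foxo3dNES against WT at normoxia DESeq2 called 3, against 0. Where no oxygen level was given the count was 3 with a pseudocount of 0.1, 1 without the filter, and 0 under edgeR, with the replicate block and in a model of those 4 libraries alone, against 5. The cause was not tested. When 1 library was left out, the count called ran from 1 to 2 higher and 3 to 3 lower at E16.5, 4 to 5 at P1, 1 to 4 at P3, 3 to 3 higher and 1 to 2 lower at D11 against D5, 5 to 5 at D13, 3 to 4 at D20 and 3 to 5 at D11 against E18.5. At D21 it ran from 0 to 4 in WT hypoxia, 0 to 4 for Foxo3dNES against WT at normoxia, 0 to 5 where no oxygen level was given and 0 to 1 for the interaction, and it stayed at 0 in the others. Over all genes called, leaving out 1 library gave 231 to 1304 at P3 (1249 with all), 16 to 6011 in WT hypoxia (3237), 0 to 0 in Foxo3dNES hypoxia (147), 1 to 5202 for genotype at normoxia (1), 2 to 3171 where no oxygen level was given (986) and 0 to 2338 for the interaction (0). The other alternatives gave 971 to 2254, 2479 to 4719, 0 to 1044, 1 to 1662, 0 to 1604 and 0 to 2 genes in the same order. Replicate numbers in the labels gave no clear pairing, since no comparison of 3 pairs had all same-number correlations over 0.1. At D13 against D11 each same-number correlation was the highest of its libraries, but these were 0.09, 0.1 and 0.04. For Foxo3dNES against WT at normoxia the same-number correlation was 0.13. With the replicate block 4 genes were called at P3, with Sepp1 added (adjusted p = 0.047), 4 at D20, with Pgm5 added (adjusted p = 0.030), and 4 in WT hypoxia. A crossed pairing, added after the data were seen because same-number correlations were -0.17 and -0.18, gave 1719 higher and 760 lower genes in WT hypoxia, 4 of the 5 members among those higher, and 24 and 107 in Foxo3dNES hypoxia, with no member. In the D21 libraries without an oxygen label, at 4.84 to 8.72 M reads, 3 reads were worth up to 0.619 RPM, which limits low values there.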
